A study of Mus musculus with 9 samples.

Results

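Fibroblasts are commonly recognised by proteins on their surface and in their cytoskeleton, apart from the matrix they secrete. The 8 genes described here are Thy1, Cd44, Pdgfra, Pdgfrb, Ddr2 and Fap, which encode cell surface proteins, and Vim and S100a4, which encode proteins inside the cell. They were chosen by name as common fibroblast markers and not by their values, though with earlier results of these data known. Every probe set annotated to 1 of the 8 symbols was included. That gave 17 of the 45101 probe sets of the array and 8 of 18193 genes with a probe set of a single symbol. A probe set is a group of short array probes that reads 1 stretch of a transcript.

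Total RNA was measured on 9 Affymetrix arrays, 1 per sample, with 3 arrays in each of 3 groups of mouse cells. Chemically induced cardiomyocyte-like cells (CiCM) had been made from mouse embryonic fibroblasts with 6 small molecules, and clusters that beat were picked at day 24. The molecules were 10 µM CHIR99021, which inhibits the kinase GSK3, 10 µM RepSox, which inhibits the TGF-beta receptor kinase, 50 µM Forskolin, which raises cyclic AMP, 0.5 mM VPA, a histone deacetylase inhibitor, 5 µM Parnate, which inhibits monoamine oxidases and the demethylase LSD1, and 1 µM TTNPB, which activates retinoic acid receptors. Cardiomyocytes (CM) came directly from mouse heart, with no strain or age in the labels. Mouse embryonic fibroblasts (MEF) came from C57BL/6 embryos of embryonic day 13.5. The labels name no marker or sort used to purify any group, so a sample may hold several cell types. Samples within a group are labelled as biological replicates, and nothing says how many animals or cultures each came from.

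As background, THY1 is a glycoprotein held in the membrane by a lipid anchor, found on fibroblasts and also on neurons and T cells of mice. CD44 is the main receptor for hyaluronan, PDGFRA and PDGFRB are receptor tyrosine kinases that bind platelet-derived growth factors, and DDR2 is a receptor tyrosine kinase that binds fibrillar collagen. FAP is a membrane serine protease known from activated fibroblasts and tumour stroma. Vimentin, the product of Vim, builds the intermediate filaments of mesenchymal cells, and S100A4 is a small calcium-binding protein that also carries the name fibroblast-specific protein. None of the 8 is restricted to fibroblasts: vimentin is present in endothelial cells and leukocytes, CD44 and S100A4 in leukocytes, and PDGFRB in pericytes, the cells that wrap small vessels.

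The upstream sequences of 3 members are shown because these genes followed different courses in the induced cells, Vim and Cd44 lower than in MEF and S100a4 not distinguishable from MEF. Whether these sequences have a part in the courses was not tested. Each is the run of 250 bases before the transcription start in RefSeq (build GRCm38.p6), 5′ to 3′ in the direction of the gene. Vim lies on the plus strand (chr2:13574061-13574310), S100a4 on the plus strand (chr3:90603520-90603769) and Cd44 on the minus strand (chr2:102901666-102901915). Capitals mark matches to the motifs searched.
Vim: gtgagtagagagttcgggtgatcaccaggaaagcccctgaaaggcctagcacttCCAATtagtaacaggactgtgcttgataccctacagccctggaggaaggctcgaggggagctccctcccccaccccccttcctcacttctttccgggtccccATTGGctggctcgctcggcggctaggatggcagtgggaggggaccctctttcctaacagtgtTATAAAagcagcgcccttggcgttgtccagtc
S100a4: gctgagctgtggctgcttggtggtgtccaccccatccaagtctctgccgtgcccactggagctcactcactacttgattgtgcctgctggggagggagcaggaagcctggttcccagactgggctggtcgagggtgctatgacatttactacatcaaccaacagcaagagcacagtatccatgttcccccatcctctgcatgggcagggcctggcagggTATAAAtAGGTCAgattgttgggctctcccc
Cd44: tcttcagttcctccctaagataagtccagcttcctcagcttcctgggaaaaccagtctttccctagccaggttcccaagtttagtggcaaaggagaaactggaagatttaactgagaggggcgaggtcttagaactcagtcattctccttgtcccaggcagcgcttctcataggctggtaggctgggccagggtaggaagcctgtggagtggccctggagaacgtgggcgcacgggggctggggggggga
The motifs, searched on both strands, were the TATA box TATAAA, the GC box GGGCGG, the CCAAT box CCAAT, the AP-1 motif TGANTCA, the nuclear receptor half-site AGGTCA, the TCF/LEF motif CTTTGAT and the cyclic AMP response element TGACGTCA. Vim had TATAAA beginning 32 bases before the start, and S100a4 had it 31 bases before the start. Of 32851 promoter windows of this length, 12.4% held TATAAA on either strand. Vim also had CCAAT 196 bases before the start and, on the opposite strand, 94 bases before it, a motif in 33.8% of windows. S100a4 had AGGTCA 24 bases before the start, a motif in 14% of windows. The Cd44 window held none of the 7 motifs, and neither did the Pdgfra window. The Ddr2 window held TATAAA on the opposite strand only, 185 bases before the start. The window had 58.4% G and C bases in Vim, 57.2% in S100a4, 56.4% in Cd44, 54.4% in Pdgfra and 37.6% in Ddr2.

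Values are log2 signals, on which a difference of 1 is a doubling. Levels are compared between groups within a gene and not between genes, since probe sets bind with different strength. Where a gene has several probe sets, the brightest on average represents it, and a gene was tested when its highest group mean reached 6.58, the median of the table. All 8 members were above that line in every group, and 12559 genes were tested in all. A gene is called higher or lower at a limma adjusted p (Benjamini-Hochberg over all genes tested) under 0.05 and a difference of at least 1. Within MEF the members varied little, with a median SD of 0.043 against 0.108 for all genes tested (n = 3 arrays). In CiCM it was 0.080 against 0.164, and in CM 0.340 against 0.239. With 3 arrays against 3 an exact permutation test cannot go below p = 0.1, so each call rests on the spread that limma shares across genes. The fit pools the 3 groups into 1 spread per gene, so the CM spread also enters the SE and interval of CiCM against MEF. A gene of the lists below can pass the filter through 1 group alone, and where its other mean is under 6.58 the size of its difference rests on a low signal. In bulk RNA, fewer cells of a type and less RNA per cell cannot be told apart.

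**Figure D1:**
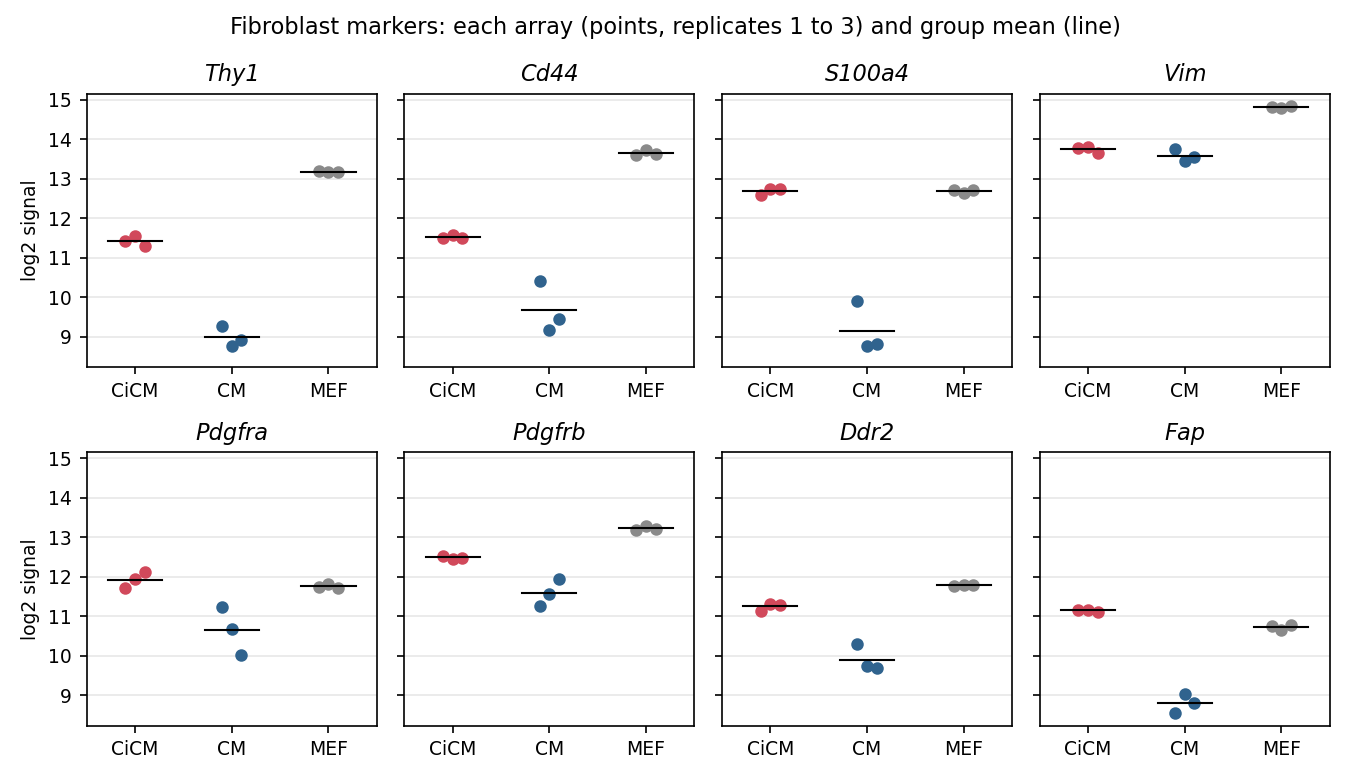
Log2 signal (vertical axis) of the 8 markers on each array of CiCM, CM and MEF (points, 3 per group, replicates left to right) with the group mean (line). CM values lie below those of MEF without overlap in all 8 panels, while S100a4 and Pdgfra of CiCM overlap those of MEF.

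In CiCM against MEF, the members split 3 ways. Thy1, Cd44 and Vim were called lower, so 3 of 8 members fell and none rose, where 12.2% of all genes tested were called lower and 11.6% higher. Pdgfrb and Ddr2 were lower and Fap was higher at adjusted p alone, by less than the minimum difference of 1. At adjusted p alone 27.8% of all genes were lower and 24.2% higher. S100a4 and Pdgfra did not pass by either measure. The median difference of the 8 members was -0.64, against -0.03 over all genes tested. In 6 of 8 members the arrays of CiCM and MEF did not overlap, 5 of them lower and 1 higher, where 36.4% of all genes were lower and 32.1% higher without overlap.

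Cd44 (Entrez Gene 12505) showed the greatest fall among the 8 in CiCM. It was at 11.48, 11.58 and 11.49 in CiCM and at 13.60, 13.72 and 13.63 in MEF. All CiCM arrays lay about the same distance below all MEF arrays. The difference was -2.13 ± 0.25 (SE, limma adjusted p = 4.37e-05), or 4.38-fold lower. Only 532 of the 12559 genes had a lower difference.

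Thy1 (Entrez Gene 21838) was at 11.42, 11.55 and 11.28 in CiCM and at 13.18, 13.16 and 13.18 in MEF. The MEF arrays were nearly equal and the CiCM arrays all lay more than 1 below them. The difference was -1.76 ± 0.13 (SE, limma adjusted p = 1.39e-06), or 3.38-fold lower. The T lymphocyte markers Cd3e, Cd3d, Cd2, Cd4 and Cd8a all had group means under 6.58 in CiCM and in MEF, and their summed linear signal was between 99.1 and 163 in CiCM and between 89.7 and 123 in MEF. Of 8 neuron and glia markers on the array 4 were tested, and 1 of them, the neuronal tubulin gene Tubb3, was lower in CiCM (-1.13, limma adjusted p = 0.0231) and in CM (-4.41), each against MEF, with its CM mean under 6.58. The sum of that list was between 841 and 1035 in CiCM, between 352 and 980 in CM and between 1537 and 1759 in MEF, and its part in the Thy1 values was not tested.

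Vim (Entrez Gene 22352) was at 13.76, 13.80 and 13.66 in CiCM and at 14.80, 14.79 and 14.84 in MEF. The groups did not overlap and the difference was close to the minimum, at -1.07 ± 0.09 (SE, limma adjusted p = 4.01e-06). Its other probe sets differed by -0.99 and -0.71, and with the mean over its probe sets the call was lost (-0.92, limma adjusted p = 4.24e-05).

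Pdgfrb (Entrez Gene 18596) was at 12.53, 12.45 and 12.48 in CiCM and at 13.18, 13.28 and 13.21 in MEF. The arrays did not overlap, and the difference of -0.74 ± 0.14 (SE, limma adjusted p = 0.00139) stayed under the minimum. Ddr2 (Entrez Gene 18214) was at 11.13, 11.32 and 11.29 in CiCM and at 11.77, 11.79 and 11.78 in MEF. Its difference was -0.54 ± 0.15 (SE, limma adjusted p = 0.0101), again without overlap and under the minimum.

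S100a4 (Entrez Gene 20198) was at 12.59, 12.74 and 12.73 in CiCM and at 12.70, 12.62 and 12.70 in MEF. The groups overlapped, and the difference of 0.010 had a 95% interval from -0.53 to 0.55 (limma adjusted p = 0.978). The interval leaves out a change of 1 in either direction. Its width rests largely on CM, as the SD of S100a4 was 0.083 in CiCM, 0.044 in MEF and 0.64 in CM. With CM left out of the fit the SE was 0.058, against 0.24 with all 9 arrays (limma adjusted p = 0.893 without CM). The sign of this difference turned with quantile normalization, centring on array medians and levelling on hybridisation controls (-0.040, -0.048 and -0.22).

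Pdgfra (Entrez Gene 18595) was at 11.72, 11.95 and 12.11 in CiCM and at 11.75, 11.80 and 11.72 in MEF. CiCM replicate 1 lay among the MEF arrays and the other CiCM arrays lay above them. The difference of 0.17 had a 95% interval from -0.37 to 0.70 (limma adjusted p = 0.587), and its sign turned with levelling on hybridisation controls (-0.060). Fap (Entrez Gene 14089) was at 11.16, 11.16 and 11.11 in CiCM and at 10.75, 10.64 and 10.77 in MEF. It was the single member above MEF on every CiCM array, by 0.42 ± 0.12 (SE, limma adjusted p = 0.0128). Levelled on hybridisation controls, the Fap difference was 0.19 (limma adjusted p = 0.424), and without MEF replicate 2 it was 0.38 (limma adjusted p = 0.0537).

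Macrophage and leukocyte markers moved in the same comparison: 12 of 12 fell in CiCM (median -2.47), and their summed linear signal was between 4974 and 8159 in CiCM and between 34118 and 37614 in MEF. The CiCM means of 5 of them (Ptprc, Itgam, Aif1, Cd52 and Fcgr3) were under 6.58, and the other 7 stayed above it. Cd44, S100a4 and Vim are also expressed by such cells, and their part in the values of these 3 genes was not tested. Skeletal muscle markers moved as well, 8 of 8 of them higher in CiCM than in MEF, with sums between 93151 and 103459 in CiCM and between 151 and 252 in MEF. Cardiomyocyte markers summed to between 34137 and 34583 in CiCM and to between 282 and 465 in MEF, with 6 of 8 markers called higher. In CiCM the signal of this list was highest for Tnnt2 (mean 14.50) and Myl2 (13.35). Myl3 had a CiCM mean of 8.61 and Myh6 one of 7.13, against 15.55 and 15.72 in CM. The CiCM means of Tnni3, Pln and Ryr2 were under 6.58. In MEF 7 of the 8 means were under it, so the calls of Tnni3 and Pln rest on low signals in CiCM and in MEF. The part of skeletal muscle cells in the CiCM signal of this list was not tested.

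Fibroblast matrix and transcription factor genes had 2 of 16 called higher (Lum, 2.84, and Dcn, 1.46) and 3 called lower (Snai2, -1.88, Fbln2, -1.45, and Prrx1, -1.36) in CiCM against MEF, with a median of -0.28. Lum and Dcn encode small proteoglycans of the matrix, Snai2 and Prrx1 encode mesenchymal transcription factors and Fbln2 encodes a matrix glycoprotein. The other 11, among them Col1a1 (13.61 ± 0.10 in CiCM, 13.32 ± 0.23 in MEF, SD, n = 3), were not called. The summed linear signal of the 16 was between 140216 and 148313 in CiCM and between 163493 and 164733 in MEF.

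**Figure D2:**
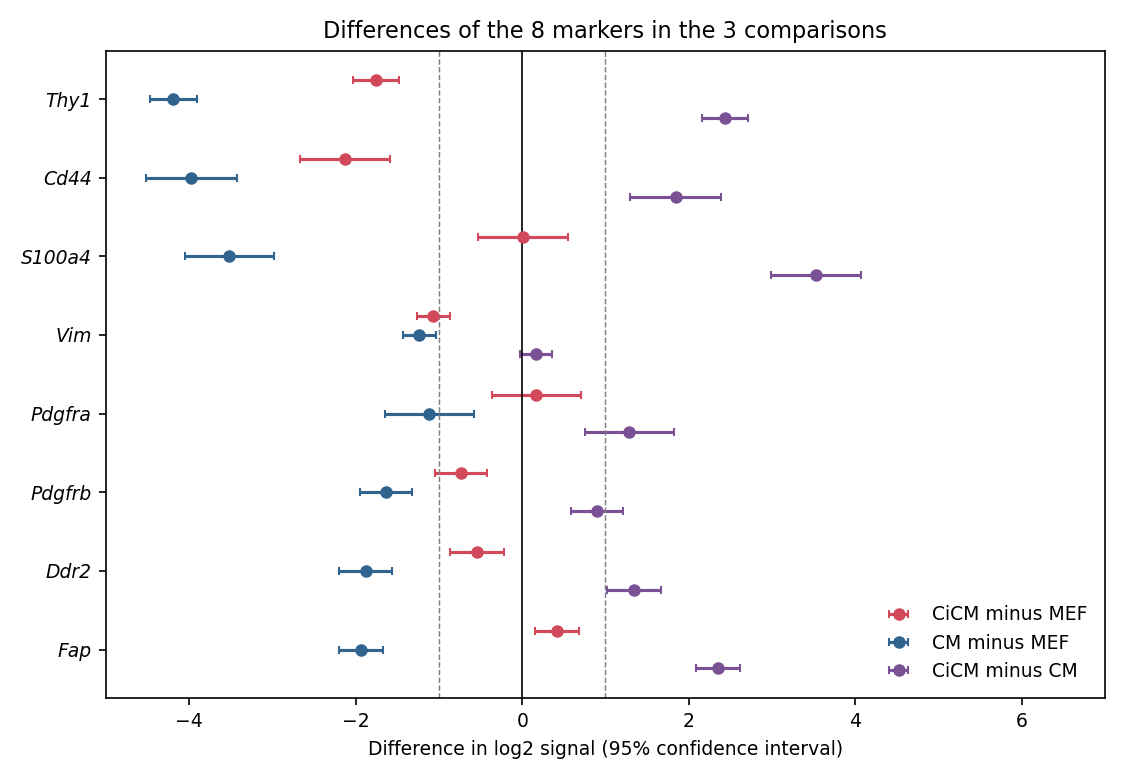
Difference in log2 signal (horizontal axis) of each marker with its 95% confidence interval for CiCM minus MEF, CM minus MEF and CiCM minus CM, and dashed lines at the minimum difference of 1. The point of CM minus MEF lies below -1 for all 8 markers, and that of CiCM minus MEF does so for Thy1, Cd44 and Vim. Among these, the intervals of Pdgfra in CM minus MEF and of Vim in CiCM minus MEF cross -1.

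In CM against MEF, all 8 members were called lower, where 21.8% of all genes tested were called lower and 22.1% higher. Arrays of the groups did not overlap for any of the 8, where 38.7% of all genes were lower without overlap. The median difference was -1.91, against -0.03 over all genes tested. The 8 calls differed widely in size, between -1.12 for Pdgfra and -4.19 for Thy1.

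Thy1, Cd44 and S100a4 fell by far more than the other 5. Thy1 was at 9.27, 8.76 and 8.92 in CM, all at least 3 below the MEF arrays given above. Its difference was -4.19 ± 0.13 (SE, limma adjusted p = 1.05e-09), or 18.3-fold lower. Cd44 was at 10.41, 9.17 and 9.44 in CM, with a difference of -3.97 ± 0.25 (SE, limma adjusted p = 1.42e-07). S100a4 was at 9.89, 8.76 and 8.82 in CM, and CM replicate 1 stood above the other CM arrays in both genes. The S100a4 difference was -3.52 ± 0.24 (SE, limma adjusted p = 3.16e-07), or 11.5-fold lower, while in CiCM the same gene did not differ from MEF detectably.

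Fap was at 8.54, 9.02 and 8.81 in CM, a difference of -1.93 ± 0.12 (SE, limma adjusted p = 1.42e-07). Ddr2 was at 10.29, 9.72 and 9.69 in CM, a difference of -1.88 ± 0.15 (SE, limma adjusted p = 7.80e-07). Pdgfrb was at 11.26, 11.55 and 11.95 in CM, a difference of -1.64 ± 0.14 (SE, limma adjusted p = 1.84e-06). For these 3 genes every CM array lay at least 1 below every MEF array.

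Vim was at 13.74, 13.45 and 13.54 in CM. The difference from MEF was -1.23 ± 0.09 (SE, limma adjusted p = 4.47e-07), or 2.35-fold lower. The other Vim probe sets differed by -1.44 and -0.91, and the second of these (1438118_x_at) stayed under the minimum. Pdgfra was at 11.23, 10.68 and 10.00 in CM, the widest range among the 8 together with Cd44. Its difference was -1.12 ± 0.24 (SE, limma adjusted p = 0.00176), and without CM replicate 3 the call was lost (-0.80).

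On the probe sets that represent the genes, CM replicate 1 had the highest Pdgfra and the lowest Pdgfrb of the group, and CM replicate 3 had the lowest Pdgfra and the highest Pdgfrb. The other Pdgfra probe sets did not share that order, at 6.80, 5.73 and 6.78 (1421916_at) and at 6.84, 6.89 and 6.44 (1438946_at) in CM. Over the representing probe sets of all 8 members, CM replicate 1 was the highest CM array in 6, the exceptions being Pdgfrb and Fap. The share of all genes tested that did so was not counted. Among the CM arrays, replicate 1 also had the highest summed signal of fibroblast matrix and transcription factor, macrophage and leukocyte, endothelial, T lymphocyte, and neuron and glia markers. It had the lowest of smooth muscle and pericyte, skeletal muscle and cardiomyocyte markers, so the order is not particular to the members. Of the 8 skeletal muscle markers 7 had CM means under 6.58, and their sum in CM was largely that of the remaining gene, Ckm.

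CM arrays carried transcripts of cells other than cardiomyocytes. All 8 endothelial markers were higher in CM than in MEF (median 5.75), with sums between 16555 and 18032 in CM and between 542 and 804 in MEF. Their CM means were at least 9.46, and the MEF means of 6 of the 8 were under 6.58. Of 10 smooth muscle and pericyte markers 5 were higher, such as Abcc9 (5.59), Rgs5 (4.84) and Des (4.21), and 4 were lower, such as Tagln (-4.82) and Acta2 (-2.17), with sums between 50253 and 66293 in CM and between 53761 and 54681 in MEF. Abcc9 and Des are expressed by heart muscle as well. Macrophage and leukocyte markers summed to between 16472 and 24881 in CM and to between 34118 and 37614 in MEF, 4 of 12 lower and none higher. The part of these cells in the CM levels of Vim, Pdgfrb, Cd44 and S100a4 was not tested.

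Of the 16 fibroblast matrix and transcription factor genes, 12 were lower in CM than in MEF and 3 were higher (median -2.63). Twist2 (-6.37), Col1a1 (-4.74) and Twist1 (-4.00) led the lower genes, while Tcf21 (4.61), Lum (3.08) and Dcn (1.92) were higher. Twist2 and Twist1 had means under 6.58 in CM, and Tcf21 had one in MEF. Their summed signal was between 45651 and 58508 in CM and between 163493 and 164733 in MEF.

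**Figure D3:**
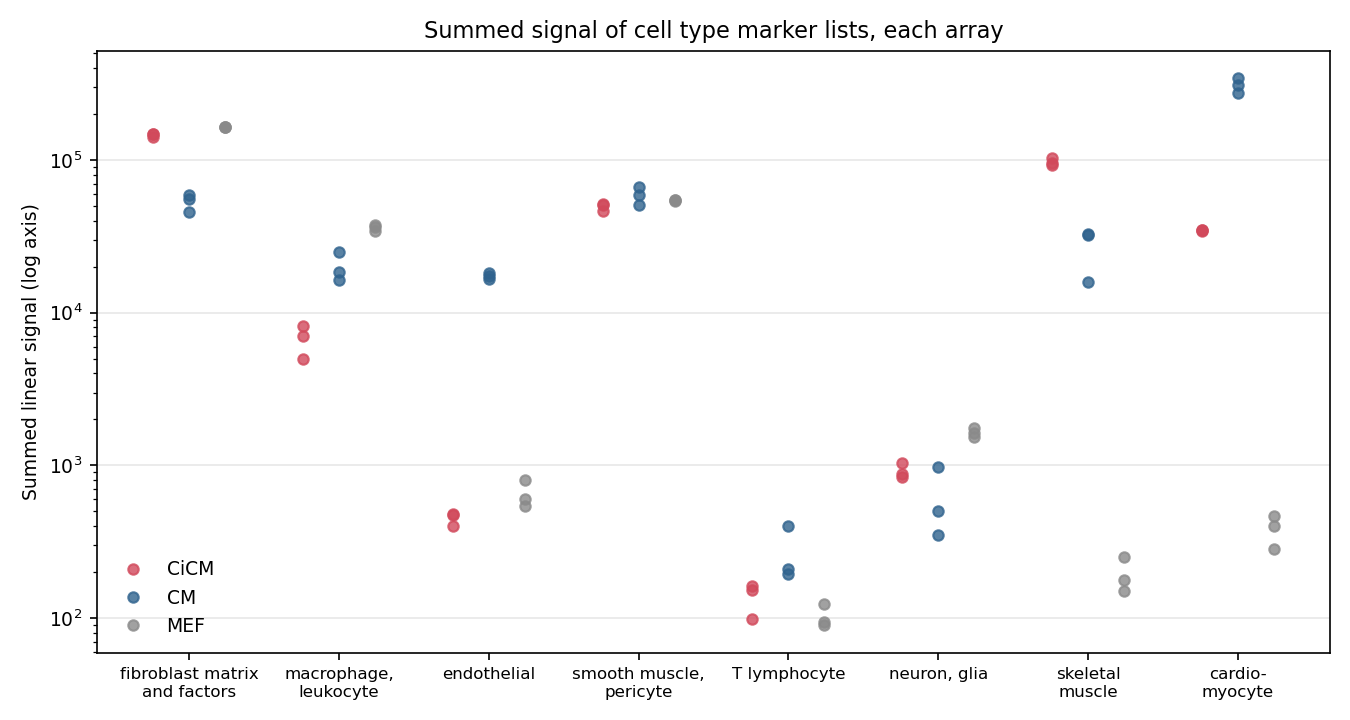
Summed linear signal of each cell type marker list (vertical log axis) on each array of CiCM, CM and MEF (points). Endothelial sums are at least 16555 on CM arrays and at most 804 on all others, and macrophage and leukocyte sums are lowest on CiCM arrays.

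In CiCM against CM, 6 of 8 members were called higher and none lower, where 16.5% of all genes tested were called higher and 19% lower. At adjusted p alone 7 of 8 were higher, where 32.5% of all genes were. The median difference was 1.59, against -0.03 over all genes tested. The 3 comparisons share arrays in pairs, so they are not independent of each other. S100a4 differed most, by 3.53 ± 0.24 (SE, limma adjusted p = 6.02e-07), or 11.6-fold. Thy1 was higher by 2.44 ± 0.13, Fap by 2.36 ± 0.12, Cd44 by 1.85 ± 0.25, Ddr2 by 1.34 ± 0.15 and Pdgfra by 1.29 ± 0.24 (SE). The limma adjusted p of these 5 lay between 7.38e-08 for Fap and 0.000853 for Pdgfra. The Pdgfra difference was 0.97 without CM replicate 3, under the minimum. In a fit over all probe sets the other Pdgfra probe sets differed by 2.42 (1421916_at) and 2.90 (1438946_at). They were called higher as well, the first with a CM mean under 6.58. In 7 of 8 members the arrays of CiCM and CM did not overlap, all with CiCM above, where 33.5% of all genes did so.

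Pdgfrb and Vim were the exceptions. Pdgfrb was higher in CiCM by 0.90 ± 0.14 (SE, limma adjusted p = 0.000244), under the minimum, but passed it with arrays centred on their medians (1.21), levelled on hybridisation controls (1.48) or without CM replicate 3 (1.08). Vim overlapped between CiCM and CM, with a difference of 0.17 and a 95% interval from -0.03 to 0.36 (limma adjusted p = 0.122). With quantile normalization, median centring and levelling on hybridisation controls the Vim difference was 0.46, 0.48 and 0.74 (limma adjusted p = 0.00106, 0.00259 and 0.00620). It also passed at adjusted p with its probe sets averaged (0.27, limma adjusted p = 0.0356) and without CM replicate 1 (0.25, limma adjusted p = 0.00783), each time under the minimum. In a fit over all probe sets, Vim probe set 1456292_a_at passed at adjusted p (0.44, limma adjusted p = 0.0127), also under the minimum. Vim probe set 1438118_x_at did not (0.21, limma adjusted p = 0.0753).

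Cell type markers moved in this comparison too. Of the fibroblast matrix and transcription factor genes 12 of 16 were higher in CiCM than in CM and 1, Tcf21, was lower (median 1.76). Skeletal muscle markers were higher in 7 of 8 cases, and the exception, Ckm, was lower. All 8 endothelial markers (median -6.20), all 8 cardiomyocyte markers (median -7.76) and 8 of 12 macrophage and leukocyte markers (median -1.80) were lower in CiCM than in CM. Of the smooth muscle and pericyte markers 3 of 10 were higher and 4 lower (median -0.32). The part of these cells in the marker differences between CiCM and CM was not tested.

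The order of the 3 groups was not the same for every member. In Thy1, Cd44, Pdgfrb and Ddr2 the means ran from MEF as highest through CiCM to CM, and each step passed at adjusted p under 0.05. In Vim the order was the same, but the step between CiCM and CM did not pass on the deposited scale with all 9 arrays and the probe set that represents the gene. In S100a4 and Pdgfra CiCM had the highest mean and CM the lowest. The arrays of CiCM and MEF overlapped in both genes, and that step did not pass at adjusted p under 0.05. In Fap CiCM was highest, MEF next and CM lowest, and each step passed at adjusted p under 0.05 on the deposited scale with all 9 arrays, though the step between CiCM and MEF did not without MEF replicate 2.

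Probe sets of the same gene that passed the filter gave the same direction in each comparison but not the same size. Of the 17 probe sets 16 passed the filter. The exception was a Cd44 probe set (1443265_at) at 4.50, 2.60 and 1.70 in CiCM, 2.78, 4.96 and 5.26 in CM, and 2.95, 2.84 and 3.25 in MEF, with overlap between all groups. In a fit over all 23424 probe sets that name a gene and pass the same line, 5 of 16 member probe sets were lower in CiCM than in MEF and none higher, where 12.7% of probe sets were lower and 11.3% higher. In CM against MEF 15 of 16 were lower, where 23.1% of probe sets were, and the exception was a Vim probe set (1438118_x_at). In CiCM against CM 11 of 16 were higher, where 16.7% of probe sets were.

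Probe sets of Cd44 and Pdgfra disagreed in size. Cd44 probe set 1452483_a_at was at 9.07, 8.48 and 8.47 in CiCM, 5.90, 6.57 and 6.33 in CM, and 12.00, 12.10 and 12.09 in MEF. Its differences from MEF were -3.39 for CiCM and -5.80 for CM, against -2.13 and -3.97 for the probe set that represents the gene. CD44 is made in several splice forms, and which of them each probe set reads was not analysed here. The 3 Pdgfra probe sets differed by -1.12, -2.16 and -2.38 in CM against MEF, and by 0.17, 0.26 and 0.51 in CiCM against MEF. The last of these (1438946_at) passed at adjusted p alone (limma adjusted p = 0.0446). The 2 probe sets of Ddr2 differed from MEF by -0.54 and -0.76 in CiCM and by -1.88 and -1.89 in CM. Those of Pdgfrb differed by -0.74 and -0.81 in CiCM and by -1.64 and -1.54 in CM.

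**Figure D4:**
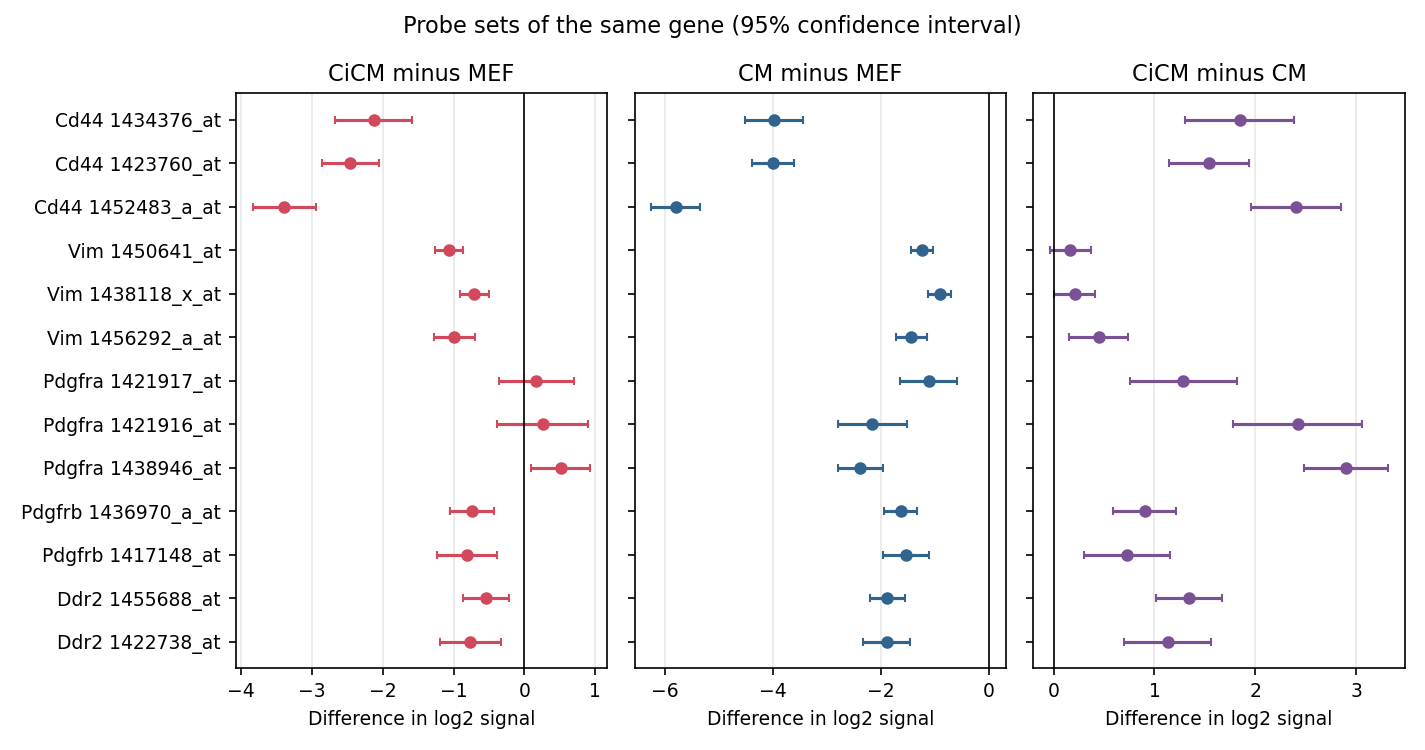
Difference in log2 signal (horizontal axes) with 95% confidence interval for each probe set of Cd44, Vim, Pdgfra, Pdgfrb and Ddr2 that passed the filter, in the 3 comparisons. Probe sets of Pdgfrb and Ddr2 lie close together, while 1452483_a_at of Cd44 lies farther from 0 than the other Cd44 probe sets in each comparison and 1421917_at of Pdgfra is the least changed of its gene in CM minus MEF.

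The lists of related genes were counted on the deposited scale alone. Over all genes tested, 11.6% were called higher and 12.2% lower in CiCM against MEF, and 22.1% and 21.8% in CM against MEF. A list whose counts lie near these shares is not set apart by them. Levelling on hybridisation controls moved the median of all genes by -0.23, -0.84 and 0.60 in CiCM against MEF, CM against MEF and CiCM against CM, so list medians nearer 0 than these can change sign with the scale.

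In CM, where Pdgfra and Pdgfrb were called lower than in MEF, the PDGF ligands and signalling partners did not fall as a group. In CiCM neither receptor gene was called against MEF. Among the 4 ligand genes, Pdgfc fell in CiCM (-1.38, limma adjusted p = 0.00469) and more so in CM (-3.35), each against MEF. Pdgfb, a ligand that endothelial cells release, was higher in CM by 3.66 (limma adjusted p = 3.78e-07), at 10.02, 10.15 and 10.49 in CM and 6.83, 6.62 and 6.24 in MEF. Pdgfa and Pdgfd were not called in any comparison. Of 13 signalling proteins tested 1 was higher and 1 lower in CiCM against MEF, Pik3r1 (1.41), a subunit of PI3 kinase, and Rasa1 (-1.29), a Ras inhibitor. Against MEF, CM had Gab1 (2.02) and Pik3r1 (1.52) higher and Src (-2.14) and Shc1 (-1.27) lower. The medians of the 13 were -0.05 and -0.01, near those of all genes.

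The list of genes for CD44 ligands, their turnover and CD44 partners had 12 tested members, of which 5 were lower and 1 higher in CiCM against MEF (median -0.39). Those lower were Hmmr (-4.32), a second hyaluronan receptor that is also a gene of dividing cells, the protease Mmp9 (-3.83), the hyaluronan synthase Has2 (-2.67), Tnfaip6 (-1.79) and Msn (-1.16), which ties CD44 to actin. Lyve1, a hyaluronan receptor of lymphatic endothelium and some macrophages, was higher by 2.25, from signals under the line of 6.58 in both groups, and Hmmr had a CiCM mean under it. Between CM and MEF 8 of 12 were lower and 2 higher (median -3.05). Cemip, which breaks hyaluronan down, was at 2.99, 5.72 and 4.99 in CM and 12.34, 12.39 and 12.41 in MEF, a difference of -7.81 with the CM mean under the line. In CiCM Cemip was at 12.73, 12.83 and 12.65, with no detectable difference from MEF (0.36, limma adjusted p = 0.591).

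Among collagen receptors other than Ddr2, Itga1, an integrin subunit, fell in CiCM (-1.69) and the other 4 tested genes were not called (median -0.22). In CM against MEF Mrc2 (-2.84), an endocytic collagen receptor, and Itgb1 (-2.10), the integrin beta chain, fell and 3 were not called. Ddr1, the close relative of Ddr2, was at 11.74, 11.21 and 11.14 in CiCM, 11.61, 10.94 and 11.35 in CM and 11.28, 11.69 and 11.79 in MEF, with overlap between all groups and no call.

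Among intermediate filament and plakin genes, 5 of 13 tested were higher and 1 was lower in CiCM against MEF (median 0.91). Des, which encodes desmin, the muscle intermediate filament, was between 13.97 and 14.06 in CiCM, at 13.58, 13.85 and 14.02 in CM, and 9.66, 9.68 and 9.47 in MEF. CiCM and CM overlapped and both lay about 4 above MEF. The difference was 4.40 in CiCM against MEF (limma adjusted p = 8.76e-10) and 4.21 in CM against MEF. The desmin partners Sync (2.46) and Synm (1.98) and the plakins Dst (1.12) and Macf1 (1.05) were also higher in CiCM, and the lamin gene Lmnb1 (-2.66) was lower. The MEF means of Sync and Synm were under 6.58. Of the same 13 genes, 4 were higher and 3 lower in CM against MEF (median 0.17).

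Of 8 tested relatives of S100a4 in the S100 family, 1 was higher and 2 lower in CiCM against MEF (median 0.07). In CM against MEF 5 were higher and 2 lower (median 1.41), while S100a4 itself was lower. S100a1, the form of heart and skeletal muscle, was higher by 1.91 in CiCM and by 4.74 in CM. S100a8, which neutrophils carry, was higher in CM by 2.53 and fell in CiCM (-1.56), where its mean was under 6.58. S100a9, its partner, was called higher in CM, at 9.99, 10.13 and 10.91 in CM and at 4.33, 0.83 and 1.17 in MEF, all 3 of these under 6.58. S100a16 (1.71) and S100a13 (1.12) were also higher in CM. S100a6, which is abundant in fibroblasts, was lower in CM (-2.67) and by less than the minimum in CiCM (-0.89, limma adjusted p = 0.00182). S100a10 was lower by 1.23 in CiCM and by 1.20 in CM.

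Of 7 tested dipeptidyl peptidase and prolyl peptidase genes related to Fap, Dpp6 (2.15) and Dpp7 (1.14) were higher in CiCM against MEF and none was lower, with the MEF mean of Dpp6 under 6.58. In CM Prep (-1.75), Dpp7 (-1.31) and Dpp3 (-1.18) were lower. Dpp4, the closest relative of Fap, was at 6.78, 3.74 and 6.41 in CiCM, 8.85, 7.23 and 6.28 in CM and 5.98, 7.25 and 6.67 in MEF, with values on both sides of 6.58 in each group and no call.

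Other mesenchymal surface markers were lower in CiCM than in MEF in 7 of 17 tested cases and higher in none (median -0.76). Alcam (-2.68), Mcam (-2.42) and Vcam1 (-2.12), all adhesion molecules, fell by the most, and Cspg4 (-2.06), Cd248 (-1.94), Itga5 (-1.60) and Cd34 (-1.42) fell too, with the CiCM means of Alcam and Cd34 under 6.58. In CM against MEF 8 were lower, led by Ncam1 (-6.64), Alcam (-4.39) and Pdpn (-3.23), and 3 were higher, Cd34 (5.01), Eng (2.83) and Cd151 (1.38). The CM means of Ncam1 and Alcam were under 6.58. Cd34 and Eng are also endothelial genes, which were high on the CM arrays as a list, and the part of endothelial cells in these values was not tested.

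The genes whose log2 levels ran most like each member over the 9 arrays are given as a description, since 9 arrays of 3 groups make high correlations common. They were Arpc4 and Ssr1 for Thy1 (r = 0.999 and 0.998), Fkbp9 and Pgm3 for Cd44 (r = 0.999 and 0.997), Zmat3 and Fndc3b for S100a4 (r = 0.999 for both), and Ss18 and Rbpj for Vim (r = 0.996 for both). For Pdgfra they were Lgr5 and Eno2 (r = 0.993 and 0.992), for Pdgfrb Igf2bp1 and Ugcg (r = 0.998 and 0.995), for Ddr2 Tram2 and Nap1l1 (r = 0.997 and 0.996), and for Fap Ube2f and Rpl14 (r = 0.997 for both). Zmat3 illustrates the S100a4 pattern, at means of 11.39 in CiCM, 8.25 in CM and 11.40 in MEF. Rbpj illustrates that of Vim, at means of 10.43 in CiCM, 10.10 in CM and 11.86 in MEF.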

How the data were processed

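Total RNA of 3 CiCM, 3 CM and 3 MEF samples was hybridised to 1-colour Affymetrix arrays with a 3' labelling kit, according to the labels' protocols. The authors deposited log2 signals, 1 for each of 45101 probe sets. The submitters' processing notes list MAS5 and no version. The log2 scale was inferred from the values: with signals made linear, a mean trimmed by 2% at each end came to 500.003 on every array, and array medians of log2 signal lay between 6.37 and 6.85. Replicates were not pooled. Scan dates and detection calls were not analysed here, and batch and group cannot be told apart. The number of arrays limits the precision.

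Gene symbols came from the platform's GEO annotation, which may be outdated: 34945 had 1 symbol, 932 several, 9160 none and 64 were controls. The brightest probe set on average stood for each of 18193 genes. Of these, 5634 with every group mean under 6.58 were left out. Differences were fitted with limma 3.58.1 in R 4.3.3 (lmFit, eBayes with a variance trend, 2-sided, all 9 arrays, no covariates), and checked on simulated data. The fit was repeated over 23424 probe sets. Promoter windows came from RefSeq (GRCm38.p6), and those of 5 members were searched. Figures used matplotlib 3.10.9 in Python 3.11.15.

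The members, gene lists, tests and alternatives were chosen with earlier results of these data known. Named genes are the 8 members, up to 3 called genes per direction, list and comparison, the 2 genes with the highest r per member, and list members that complete a small count. Zmat3 and Rbpj were given as examples, and Col1a1, Cemip in CiCM, Ddr1, Dpp4, S100a6 in CiCM and other genes beyond that rule, after their values were seen. Same-numbered replicates showed little common deviation between groups (r between -0.02 and 0.07 over 12559 genes), and the arrays were fitted as unpaired. With 3 arrays per group this cannot exclude a shared origin of same-numbered samples. Alternatives were 2 offsets added to linear signals, other filters and normalizations, the mean over probe sets, 2-group fits, no variance trend, the replicate block, no minimum difference and leaving out each array.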

Additional observations from a re-analysis of the deposited data

How the results depend on the processing

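The 24 member differences (8 genes in 3 comparisons) kept direction and call in 467 of 480 refits, and 18 of the 24 did so in all of theirs. Thy1 and Cd44 kept their calls in every comparison and refit. The S100a4 difference in CiCM against MEF turned sign with quantile normalization (-0.040), median centring (-0.048), levelling on 18 hybridisation controls (-0.22) and without CiCM replicate 2 or 3 or MEF replicate 2 (-0.016, -0.011 and -0.015), with a range of -0.016 to 0.058 when single arrays were left out, and that of Pdgfra with levelling (-0.060). The Vim call in CiCM was lost with probe sets averaged (-0.92), and Pdgfra calls were lost without CM replicate 3 (-0.80 against MEF, 0.97 for CiCM against CM). Pdgfrb in CiCM against CM passed the minimum with centring (1.21), levelling (1.48) and without CM replicate 3 (1.08). Fap in CiCM against MEF did not pass at adjusted p with levelling or without MEF replicate 2. The cause was not tested.

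Members called lower numbered 3 in CiCM against MEF in every refit that left out an array, 7 to 8 in CM against MEF, and 6 were higher in CiCM against CM in each. With no minimum difference 5 were lower and 1 higher in CiCM against MEF. Over all genes 2987, 5515 and 4462 were called for CiCM against MEF, CM against MEF and CiCM against CM. Without a minimum difference these were 6529, 8790 and 8089, and with the larger offset added to linear signals the first was 1927. Leaving out an array gave 2788 to 3082, 5335 to 5706 and 4293 to 4614. With the replicate block they were 2978, 5508 and 4434, and no member's call changed. Levelling shifted the median of all genes by -0.23, -0.84 and 0.60 in the order above, and median centring by -0.06, -0.39 and 0.32. Higher calls made up 48.6%, 50.4% and 46.5% of calls, against 35.3%, 21.4% and 75.03% with levelling and 45.3%, 34.6% and 62.9% with centring. All 8 members stayed lower in CM than in MEF under each of these scalings.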
